A study of Sus scrofa with 5 samples.

Results

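The genes described here are 8 red blood cell genes, chosen by name from the 30822 genes listed for pig ovarian follicles: HBB, AHSP, ALAS2, SLC4A1, EPB42, HEMGN, GATA1 and KLF1. All 8 had a row in each library. The samples were whole ovarian follicles of female Indian Ghoongroo pigs, 3 libraries of large follicles (replicates 1, 2 and 3) and 2 libraries of small follicles (replicates 1 and 2). The labels give no treatment, animal age or follicle diameter, and do not say whether the libraries came from separate animals, so a p-value measures only the spread between these samples. The question was whether the red blood cell genes differ between follicle sizes and whether they order the 5 libraries alike.

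Red blood cells carry oxygen on hemoglobin, a tetramer of alpha and beta globin chains that each hold a heme group. Their precursors mature in the bone marrow under the transcription factors GATA1 and KLF1, which switch on globin, heme and membrane genes, and then lose the nucleus. Young circulating cells still hold globin and heme enzyme mRNA but little mRNA of the early factors. In the ovary the theca layer carries the follicle's blood vessels, while the granulosa layer inside it has none before ovulation.

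Library totals, worked back from the steps of the FPKM values, ran from 9523739 to 11507527 fragments. FPKM are fragments per kilobase of gene, scaled to the library's total. A gene was tested if it reached 1 FPKM in at least 2 libraries, which 13087 genes did. Follicle markers were abundant in all libraries, for example the inhibin subunit INHA at 2876 to 11739 FPKM and the theca enzyme CYP17A1 at 145 to 2451 FPKM. Rows of the mitochondrial genome, whose share can move with RNA quality, held 3.46%, 6.33% and 3.08% of fragments in large follicle replicates 1, 2 and 3. In small follicle replicates 1 and 2 they held 8.497% and 4.20%. Within each group this share ran in the library order of HBB given below. The number of genes at 1 FPKM or more ran in the reverse order within each group. The part of either in the results below was not tested.

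Among the 8 genes, those of hemoglobin formation, HBB, AHSP and ALAS2, had their highest values in large follicles and their lowest in small follicles. The globin gene HBQ1 and several other heme synthesis genes, given below, did not. HBB, the beta chain of adult hemoglobin, was 2.84-fold higher in the mean of large follicles, AHSP 6.41-fold and ALAS2 2.56-fold. Fewer cells of a type and less RNA per cell cannot be told apart in whole follicles. None of the 3 passed the test, limma with Benjamini-Hochberg (BH) adjustment over all genes tested, at an adjusted p under 0.05. GATA1, the factor that drives red cell formation, went the other way and was the only one of the 8 that passed, with 43 fragments in small and 2 in large follicles. It passed the filter through the small follicle libraries alone, and with no filter its limma BH-adjusted p was 0.0517. SLC4A1 and KLF1 had at most 1 fragment in any library.

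HBB (gene 407066, Sscrofa11.1 chromosome 9, 4800683 to 4801941, minus strand) had 1295, 1663 and 995.1 FPKM in large follicle replicates 1, 2 and 3. In small follicle replicates 1 and 2 it had 697 and 231 FPKM. Every large follicle library was above both small ones, and the small libraries differed from each other about as much as the groups did. Group means were 1318 ± 334 FPKM (SD, n = 3) and 464 ± 329 FPKM (SD, n = 2). HBB fragments made up 0.0494% to 0.0825% of the large follicle libraries and 0.0115% to 0.0346% of the small ones.

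Across all genes tested, the same fit called 0.978% in either direction, 0.535% higher and 0.443% lower in large follicles. Of the 5 red blood cell genes that passed the filter on low values, 0 were called higher and 1 was called lower. HBB had a log2 fold change of 1.68 (SE 0.44, limma BH-adjusted p = 0.142) on the log2(FPKM + 1) scale. Without small follicle replicate 2 its log2 fold change was 0.89 (limma BH-adjusted p = 0.694), and without small follicle replicate 1 it was 2.48 (limma BH-adjusted p = 0.00435). With libraries scaled to a common FPKM sum its limma BH-adjusted p was 0.0258, and without large follicle replicate 3 it was 0.0288.

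Both alpha rows, HBM and the beta-like row had the same direction, and HBQ1 did not. The alpha chain row LOC110259958 (chromosome 3, 41482353 to 41483564) had 38.6, 22.5 and 11.3 FPKM in the large follicle libraries. It had 6.25 and 1.35 FPKM in the small ones. Its values fell in 1 order, large replicate 1, 2, 3, then small replicate 1 and 2, over a 28.6-fold range. The log2 fold change was 2.45 (SE 0.54, limma BH-adjusted p = 0.0812). The neighbouring alpha-like row LOC100737768 had 23.7, 10.04 and 8.96 against 3.45 and 1.31 FPKM (log2 fold change 2.12, SE 0.44, limma BH-adjusted p = 0.0652).

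HBM, the mu chain gene of the alpha cluster, had 5.11, 5.15 and 2.46 FPKM in large and 1.35 and 1.46 FPKM in small follicles (limma BH-adjusted p = 0.242). The beta-like row LOC100515788, next to HBB, had 5.02, 12.01 and 2.97 against 2.33 and 0.664 FPKM (limma BH-adjusted p = 0.276). In both rows all large follicle libraries were above both small ones. HBQ1, the theta chain gene, had 8, 4 and 5 fragments in the large follicle libraries against 12 and 2 in the small ones, with overlapping groups and a lower mean in large follicles, 0.311 against 0.432 FPKM. Its ratio to HBB was higher in both small follicle libraries than in any large one (exact permutation p = 0.1, two-sided). The embryonic chain genes HBE1 and HBZ had at most 1 fragment in a library, and the epsilon-like row LOC100621288 was listed at 0 in all 5. Adult hemoglobin holds alpha and beta chains in equal number, but the alpha rows stood far under HBB here. The 2 alpha rows lie side by side, and the labels do not say how a fragment that fits near-identical copies was counted, so alpha levels are uncertain. All globin rows of the chromosome 3 cluster also lie inside NPRL3 on the opposite strand, at 13.6 to 20.4 FPKM in large and 22.7 to 27.05 FPKM in small follicles. A stranded kit was used, but the labels do not say whether counting used the strand. These fragments therefore cannot be told apart from those of NPRL3.

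AHSP (chromosome 3, 17059340 to 17060343) encodes a chaperone that binds free alpha chains and keeps them from precipitating. It had 2.79, 2.83 and 1.803 FPKM in large follicles, from 17, 15 and 10 fragments. In small follicles it had 0.396 and 0.376 FPKM, from 2 fragments in each library. The groups were well apart, and both small values lay under the FPKM that 3 fragments give there, 0.594 and 0.564. Over pooled fragments the ratio of small to large follicles was 0.156, with an exact 95% interval of 0.0405 to 0.429 that covers counting error only.

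The test of AHSP gave a log2 fold change of 1.31 (SE 0.27, limma BH-adjusted p = 0.0627). It was called in other fits: leaving out large follicle replicate 2 gave a limma BH-adjusted p of 0.0352, leaving out large follicle replicate 3 gave 0.0290 and median-of-ratios scaling gave 0.0409. AHSP passed the filter through the large follicle libraries alone, so a difference was built into its passing.

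ALAS2 (chromosome X, 47871519 to 47896041) encodes the red cell form of the first enzyme of heme synthesis. It had 5.62, 9.36 and 6.19 FPKM in large follicles, from 128, 185 and 128 fragments. In small follicles it had 4.19 and 1.31 FPKM, from 79 and 26 fragments. Small follicle replicate 1 was close to large follicle replicate 1, and small follicle replicate 2 stood lowest, as for HBB. The log2 fold change was 1.19 (SE 0.39, limma BH-adjusted p = 0.277). It was 0.61 without small follicle replicate 2 (limma BH-adjusted p = 0.994) and 1.77 without small follicle replicate 1 (limma BH-adjusted p = 0.0791).

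**Figure D1:**
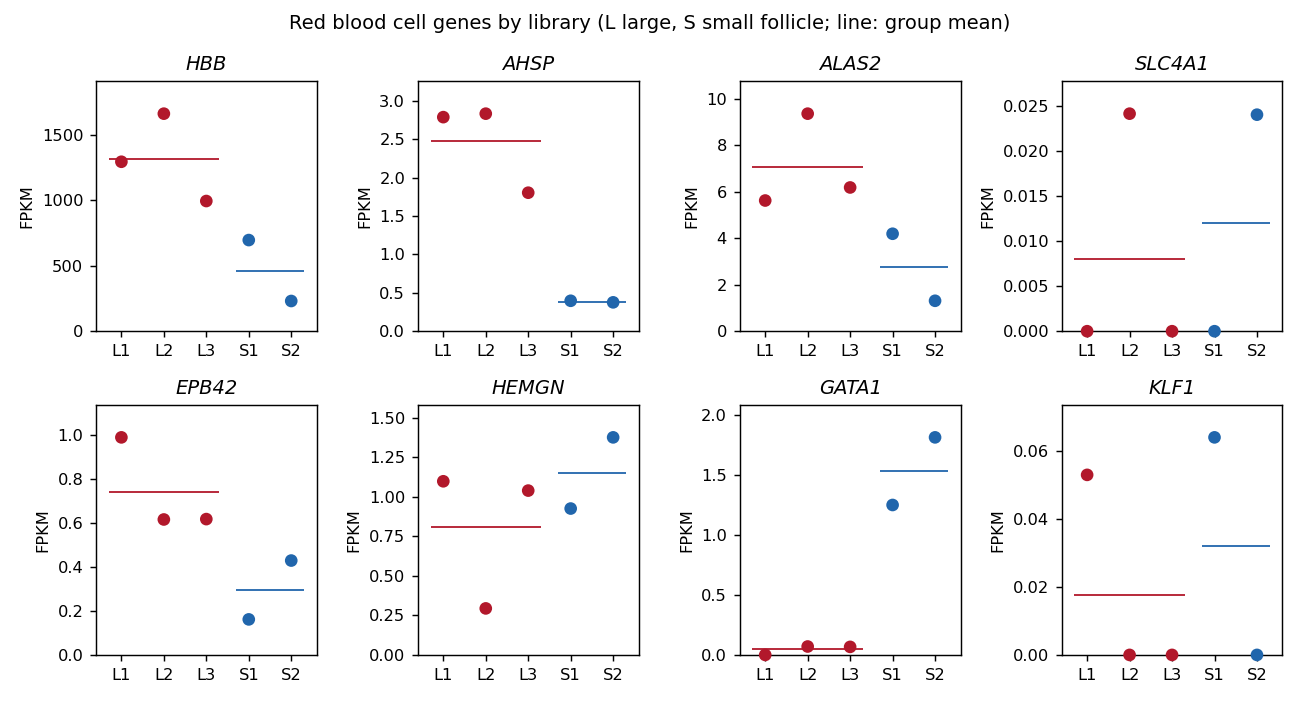
FPKM of each of the 8 genes in the 3 large (L1 to L3, red) and 2 small (S1, S2, blue) follicle libraries, on linear axes from 0 that differ between panels; lines are group means. HBB, AHSP, ALAS2 and EPB42 had all large follicle libraries above both small ones, GATA1 had both small ones above all large ones, and SLC4A1 and KLF1 had at most 1 fragment per library.

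The membrane genes were sparse. SLC4A1 (chromosome 12, 18957813 to 18975266), the anion exchanger called band 3 that anchors the red cell skeleton, had 1 fragment in large follicle replicate 2 and 1 in small follicle replicate 2, and 0 in the others. With 3 fragments worth 0.0628 to 0.0759 FPKM, no difference could be detected at this depth. EPB42 (chromosome 1, 128231863 to 128253696), which links band 3 to the skeleton, had 0.991, 0.617 and 0.619 FPKM in large follicles, from 37, 20 and 21 fragments. It had 0.162 and 0.430 FPKM in small follicles, from 5 and 14 fragments.

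EPB42 values did not overlap between the groups, but small follicle replicate 2 was above replicate 1, against the order of HBB. It missed the filter. With no filter its limma BH-adjusted p was 0.493. The end of EPB42 overlaps CCNDBP1 on the opposite strand, at 6.99 to 10.6 FPKM in all libraries.

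GATA1 and HEMGN did not have the library order of HBB. GATA1 (chromosome X, 42898431 to 42905939) had 0, 1 and 1 fragments in large follicle replicates 1, 2 and 3. It had 17 and 26 fragments in small follicle replicates 1 and 2, which is 1.25 and 1.81 FPKM. The groups did not overlap, and the small follicle library with the least HBB had the most GATA1. Over pooled fragments GATA1 was 35.1 times as frequent in small follicles, with an exact 95% interval of 9.15 to 299 for counting error. The log2 fold change was -1.27 (SE 0.23, limma BH-adjusted p = 0.0393). On the scale of log2(FPKM + 1) this understates the difference of so low a gene.

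The call of GATA1 was lost in several fits. Its limma BH-adjusted p was 0.149 without large follicle replicate 1, 0.0685 with a pseudocount of 5 and 0.0517 with no filter. GATA1 passed the filter through the 2 small follicle libraries alone, so it was not tested when either of them was left out. It overlaps the noncoding row LOC110257658 on the opposite strand, which had 0.703 FPKM in small follicle replicate 2 and at most 0.118 FPKM in the others. Without strand their fragments cannot be told apart.

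KLF1 (chromosome 2, 66144767 to 66148500), the factor that activates the adult beta globin gene, had 1 fragment in large follicle replicate 1, 1 in small follicle replicate 1 and 0 elsewhere. HEMGN (chromosome 1, 239790503 to 239834568), a nuclear protein of blood cell precursors, had 1.10, 0.294 and 1.04 FPKM in large and 0.925 and 1.38 FPKM in small follicles. Its groups overlapped, and the library with the most HBB, large follicle replicate 2, had the least HEMGN. The log2 fold change was -0.27 (SE 0.29, limma BH-adjusted p = 0.844).

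GATA1 belongs to a family of 6 zinc finger factors. The other 5 were looked at after the values of GATA1 were known. GATA4, a factor of granulosa and theca cells, was between 28.0 and 39.9 FPKM in large and 47.6 and 48.4 FPKM in small follicles (limma BH-adjusted p = 0.514). GATA6, with a like role, was between 37.7 and 60.8 against 51.1 and 80.7 FPKM (limma BH-adjusted p = 0.741). GATA2, a factor of early blood precursors and endothelium, was between 2.396 and 4.29 against 2.57 and 4.62 FPKM. GATA3 and GATA5 stayed under 0.6 FPKM in every library.

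Library order was then compared gene by gene. The 5 libraries form 10 pairs, and for each gene the pairs in the same order as for HBB were counted. HBB ran from large replicate 2 over large replicates 1 and 3 to small replicate 1 and then small replicate 2. AHSP gave that order in 10 of 10 pairs and ALAS2 in 9, with only large replicates 1 and 3 exchanged. Over all other genes tested the median was 3 of 10 pairs; 3.94% of genes reached at least 9 and 0.864% all 10. The AHSP order within each group rests on counts of 17 and 15 and of 2 and 2, which are within counting error of each other. AHSP also passed the filter through the large follicle libraries alone, which fixed its pairs between the groups. Its 10 pairs therefore cannot be set against these shares.

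Of the globin rows, the beta-like row, both alpha rows and HBM were close to that order. The beta-like row matched in 10 pairs, and both alpha rows and HBM in 9. For the alpha rows the exchanged pair was large replicates 1 and 2, and for HBM it was the 2 small follicle libraries. HBQ1, under the filter and with few fragments, matched in only 5 pairs. HBE1, HBZ and the epsilon-like row had mostly tied pairs and no usable order. EPB42 matched in 7 pairs, HEMGN in 3 and GATA1 in 2. SLC4A1 and KLF1 each had 3 tied pairs and no usable order. So 2 of the other 7 genes shared the HBB order in at least 9 pairs, and GATA1 reversed 8 pairs. For AHSP and GATA1 the pairs between the groups were fixed by how they passed the filter.

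**Figure D2:**
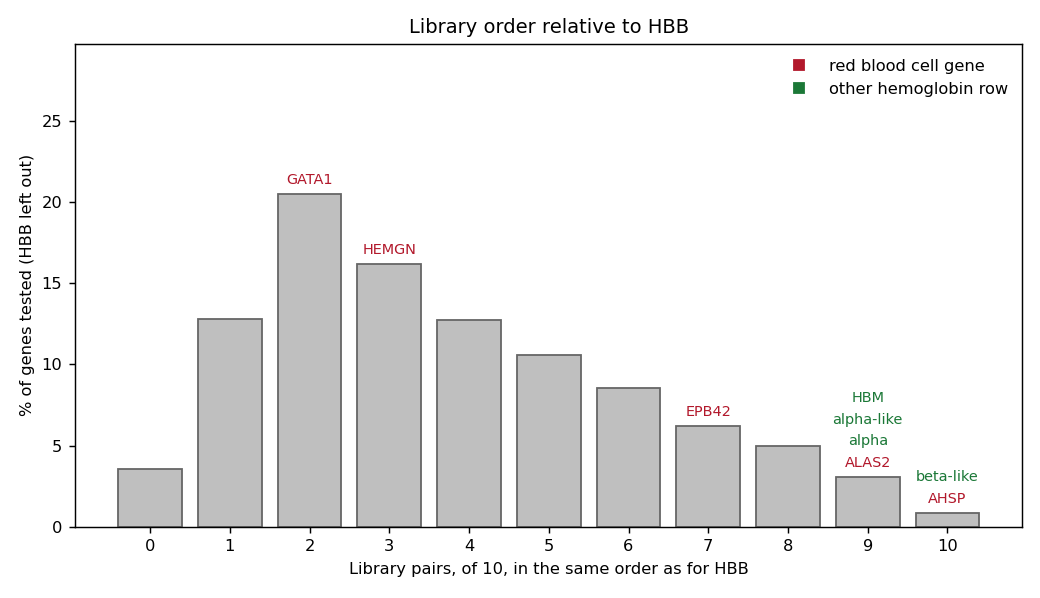
Share of the genes tested, HBB left out, by the number of the 10 library pairs that they order as HBB does, with 5 of the red blood cell genes (red) and 4 other hemoglobin rows (green) written above their number. Most genes lie at low numbers (median 3), AHSP, ALAS2 and these 4 hemoglobin rows at 9 or 10, EPB42 at 7, HEMGN at 3 and GATA1 at 2. HBQ1, at 5, is not drawn. AHSP and GATA1 passed the filter through 1 group alone, which fixed their pairs between the groups.

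Groups that do not overlap are common in 3 against 2 libraries: 10.9% of the genes tested had all large follicle libraries above both small ones, and 15.2% the reverse. HBB, AHSP, ALAS2 and EPB42 were of the first kind and GATA1 of the second.

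**Figure D3:**
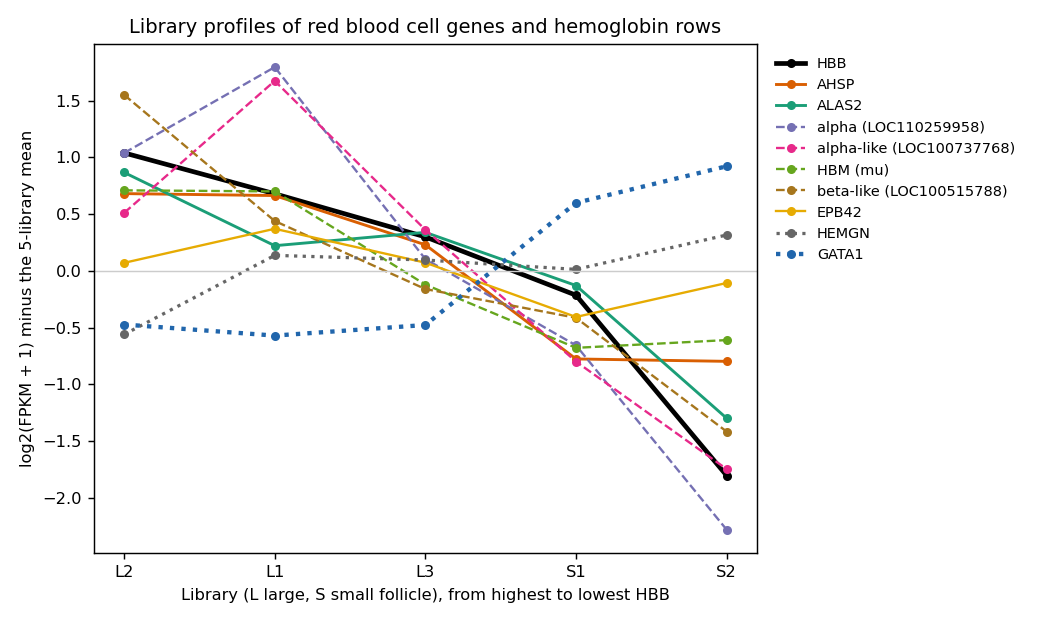
Values of log2(FPKM + 1) in each library minus the gene's mean over the 5 libraries, for 6 of the red blood cell genes and 4 other hemoglobin rows; libraries run from highest (L2) to lowest (S2) HBB. Most lines fall from left to right with HBB, while GATA1 rises at the small follicle libraries and HEMGN is lowest at L2.

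Whether the genes also moved by the same amount was read from their fragments relative to HBB. A ratio to HBB within a library does not change with the scaling of that library. The level of HBB itself spanned a 7.20-fold range over the 5 libraries. ALAS2 made up 1.70%, 2.20% and 2.42% of the summed ALAS2 and HBB fragments in large follicles and 2.34% and 2.21% in small follicles. The ratio of ALAS2 to HBB thus stayed within a 1.43-fold range. The Wilson 95% interval of large follicle replicate 1, 1.43% to 2.02%, held none of the other values, while the intervals of the other 4 libraries each held one another's values, for example 1.51% to 3.22% in small follicle replicate 2. The mean log2 ratio differed by -0.13 between large and small follicles (exact permutation p = 0.8, two-sided). The smallest p that 3 against 2 libraries allow is 0.1, so no such ratio could be called.

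AHSP held 0.229%, 0.182% and 0.193% of its summed fragments with HBB in large follicles. In small follicles it held 0.0607% and 0.174%, with wide intervals that reach from 0.0167% to 0.221% and from 0.0476% to 0.631%. Its log2 ratio to HBB was 0.97 higher in large follicles (exact permutation p = 0.1, two-sided), with no overlap, but from 2 fragments in each small follicle library.

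The alpha rows did not keep 1 ratio to HBB. LOC110259958 made up 5.45% of its sum with HBB in large follicle replicate 1 (Wilson 95% interval 4.97% to 5.97%). Large follicle replicates 2 and 3 had 2.54% and 2.14%, and the small follicle libraries 1.70% and 1.12%. This is a 5.10-fold range, with large follicle replicate 1 far outside the intervals of the others. LOC100737768 was also highest in that library, at 2.20% against 0.604% to 1.09% in the other 4. The beta-like row was highest in large follicle replicate 2, at 0.651% (interval 0.499% to 0.848%), against 0.260% to 0.350% elsewhere. The interval of small follicle replicate 2, 0.0885% to 0.762% from 3 fragments, held that highest value. Those of large follicle replicate 1, up to 0.513%, and small follicle replicate 1, up to 0.557%, met its interval.

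EPB42 and HEMGN moved apart from HBB. EPB42 ran from 0.152% in small follicle replicate 1 to 1.20% in small follicle replicate 2, and these 2 intervals, 0.0648% to 0.355% and 0.718% to 2.01%, did not meet. HEMGN ran from 0.121% in large follicle replicate 2 to 3.93% in small follicle replicate 2, a 33.7-fold range of its ratio to HBB. Its ratio was higher in both small follicle libraries than in any large one (exact permutation p = 0.2, two-sided). GATA1 made up at most 0.0194% of its sum with HBB in large follicles, and 0.514% and 2.21% in small ones.

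**Figure D4:**
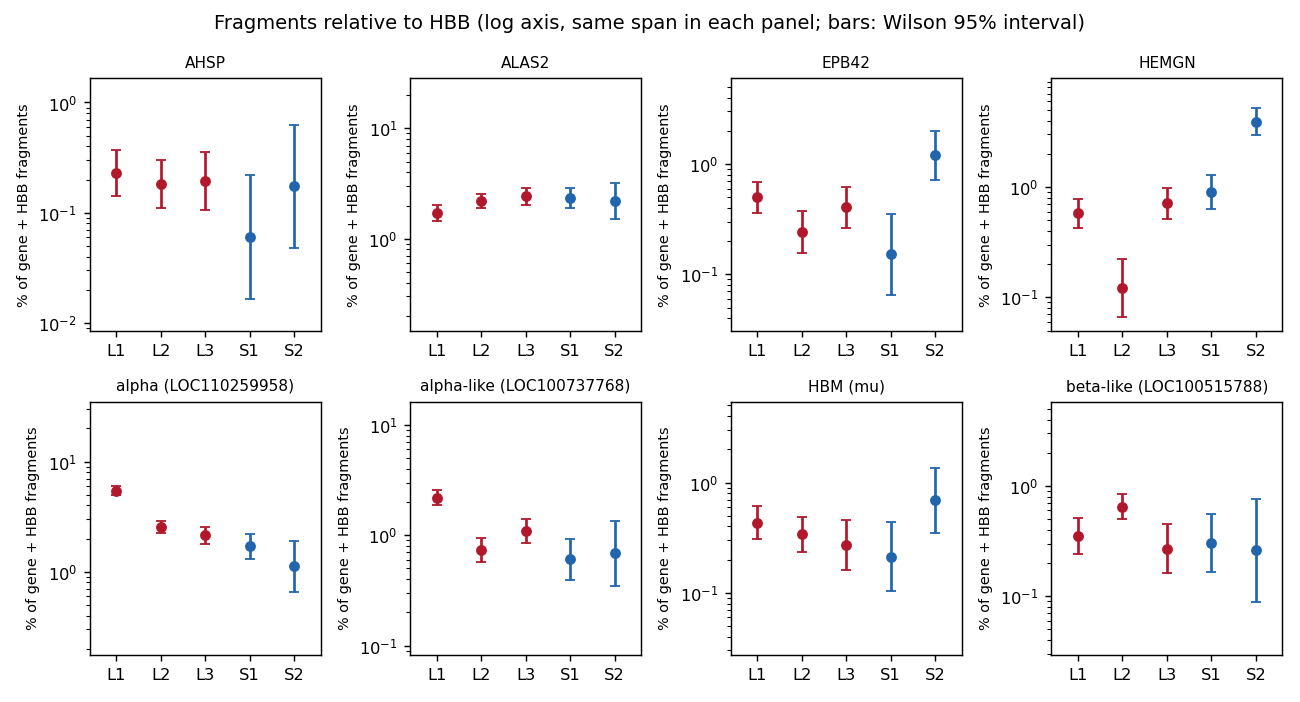
Fragments of 4 red blood cell genes (upper row) and 4 other hemoglobin rows (lower row) as a percentage of the summed fragments of that gene and HBB, in each large (red) and small (blue) follicle library, on log axes of equal span; bars are Wilson 95% intervals for counting error. ALAS2 stays between 1.70% and 2.42%, while HEMGN, EPB42 and the alpha row LOC110259958 spread several-fold.

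Other genes of red cell formation were taken from 4 lists, of which 9, 13, 16 and 14 genes with a row in the files are reported here. In heme synthesis 0 of 9 tested genes were called, and 5 had higher and 4 lower values in large follicles. The median log2 fold change was 0.021, beside -0.08 over all genes tested. UROS, UROD, ALAD and SLC25A38, which act in every cell type that makes heme, had log2 fold changes between -0.23 and 0.25. None of the 9 ordered the libraries as HBB did in at least 9 pairs, which ALAS2 did.

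Of the red cell membrane and skeleton list, 7 of 13 genes passed the filter. Calls were 0 higher and 0 lower among them, with 3 higher and 4 lower values in large follicles and a median of -0.056. SPTB, the beta spectrin chain, was under the filter and was picked after its values were seen. It had its higher values in large follicles, at 0.225 to 0.299 FPKM against 0.164 and 0.195 FPKM in small follicles. ERMAP, also under the filter, went the other way, at 0.119 to 0.189 FPKM in large and 0.270 and 0.551 FPKM in small follicles. ANK1, KEL and ICAM4, also under it, had overlapping groups. RHAG, of the Rh complex of the red cell surface, was listed at 0 in all 5 libraries. EPB41, the protein that joins spectrin to actin, had a log2 fold change of -0.63 (limma BH-adjusted p = 0.493). STOM, the membrane protein stomatin, GYPC, glycophorin C, and ADD2, beta adducin, had log2 fold changes of 0.27, 0.25 and -0.32. EPB41 and ADD2 had both small follicle libraries above all large ones, and the groups of STOM and GYPC overlapped.

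Of the red cell enzymes and late erythroid genes, 9 of 16 were tested and 0 called, with a median of 0.06. BPGM, which makes the phosphate ester that lowers hemoglobin's oxygen affinity, had 11.13, 20.3 and 18.2 FPKM in large and 7.74 and 7.58 FPKM in small follicles (limma BH-adjusted p = 0.209). It matched the HBB order in 9 pairs. SELENBP1, a selenium-binding protein, GLRX5, of iron-sulfur cluster assembly, and GMPR, of purine metabolism, had log2 fold changes of -0.55, 0.36 and 0.44.

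Of the erythroid regulators, 11 of 14 were tested and 0 called, with 4 higher and 7 lower values and a median of -0.25. ZFPM1, the cofactor that binds GATA1, had 7.30, 11.99 and 8.08 FPKM in large and 20.97 and 26.5 FPKM in small follicles. Its groups were apart in the direction of GATA1 (log2 fold change -1.31, SE 0.27, limma BH-adjusted p = 0.0658). Over the alternatives its limma BH-adjusted p ran from 0.00766 without large follicle replicate 2 to 0.345 without small follicle replicate 2. BCL11A, a repressor of fetal globin genes, had a log2 fold change of -0.62 (limma BH-adjusted p = 0.470). NFE2, another globin activator, was under the filter, with 2 fragments in large and 12 in small follicles. It was picked after its values were seen. The 4 tested regulators with higher values in large follicles were EPOR, LMO2, TAL1 and LYL1. Their log2 fold changes were 0.43, 0.15, 0.10 and 0.019. TFRC, the transferrin receptor, and STAT5A had log2 fold changes of -0.74 and -0.33.

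Markers of other blood and vessel cells were read beside these genes. Of the neutrophil and monocyte list, 7 of 13 genes were tested and 0 called. All 7 had higher values in large follicles, beside 39.9% of all genes tested, but 4 of them (S100A8, S100A9, S100A12 and FCN1) passed the filter through large follicle libraries alone, which fixed their direction. S100A12, a calcium-binding protein of neutrophils, had 19.7, 61.1 and 2.11 FPKM in large and 0 and 0.550 FPKM in small follicles (limma BH-adjusted p = 0.144). S100A9 and FCN1, of neutrophils and monocytes, gave the HBB order in 10 pairs. At least 9 pairs were reached by 5 of the 7 tested genes, beside 3.94% over all genes tested. These 5 include the 4 that passed through large follicle libraries alone, which also fixed most of their pairs between the groups. Their order therefore cannot be set against that share. Among the genes under the filter, MPO, the peroxidase of neutrophil granules, had 0.0357, 0 and 0 FPKM in large and 0.302 and 0.123 FPKM in small follicles, the other direction. ELANE, neutrophil elastase, had overlapping groups. The summed FPKM of the list was 118 to 204 in large and 56.2 to 75.2 in small follicles. Most of it in small follicles, 68.9 and 47.9 FPKM, came from the Fc receptor gene FCGR3A, which had 79.8, 101.9 and 114.2 FPKM in large follicles. MPO, ELANE and FCGR3A were picked after their values were seen.

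Platelet markers had overlapping sums, 8.36 to 9.83 FPKM in large and 8.06 to 10.9 FPKM in small follicles, 0 of 3 tested genes called and the platelet chemokine PPBP at 0 in all 5 libraries. Over all genes tested, 0.978% were called. Endothelial markers summed to 466 to 553 against 360 to 394 FPKM, with 1 of 13 called, the water channel AQP1, and 0 in the HBB order in at least 9 pairs. Of the 13, 10 had higher values in large follicles and 3, CDH5, KDR and FLT1, had lower ones. Most had overlapping groups. Most of the difference in sums came from AQP1, 81.7 to 85.5 against 36.2 and 40.5 FPKM, and EGFL7, 69.2 to 154 against 52.1 and 76.2 FPKM. Macrophage markers summed to 428 to 593 against 376 to 421 FPKM, with 1 of 10 called, the lysozyme LYZ, and 8 higher and 2 lower values in large follicles. Lymphocyte markers summed to 27.7 to 40.9 against 35.6 to 39.5 FPKM, with 0 of 8 called. Theca markers summed to 2078 to 4430 against 935 to 1230 FPKM, with 1 of 8 called, CYP17A1, higher in large follicles. Values were higher in large follicles for 6 of the 8 and lower for 2. GLI1, 1 of the 2, had 2.41, 1.06 and 2.11 against 4.47 and 4.85 FPKM. Granulosa markers had overlapping sums, 5831 to 14262 against 4257 to 5982 FPKM. Of these 10 markers, 4 had higher and 6 lower values in large follicles. The 1 called was the inhibin subunit INHBB, lower in large follicles. The part of leukocyte, vessel or theca content in the hemoglobin values was not tested.

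**Figure D5:**
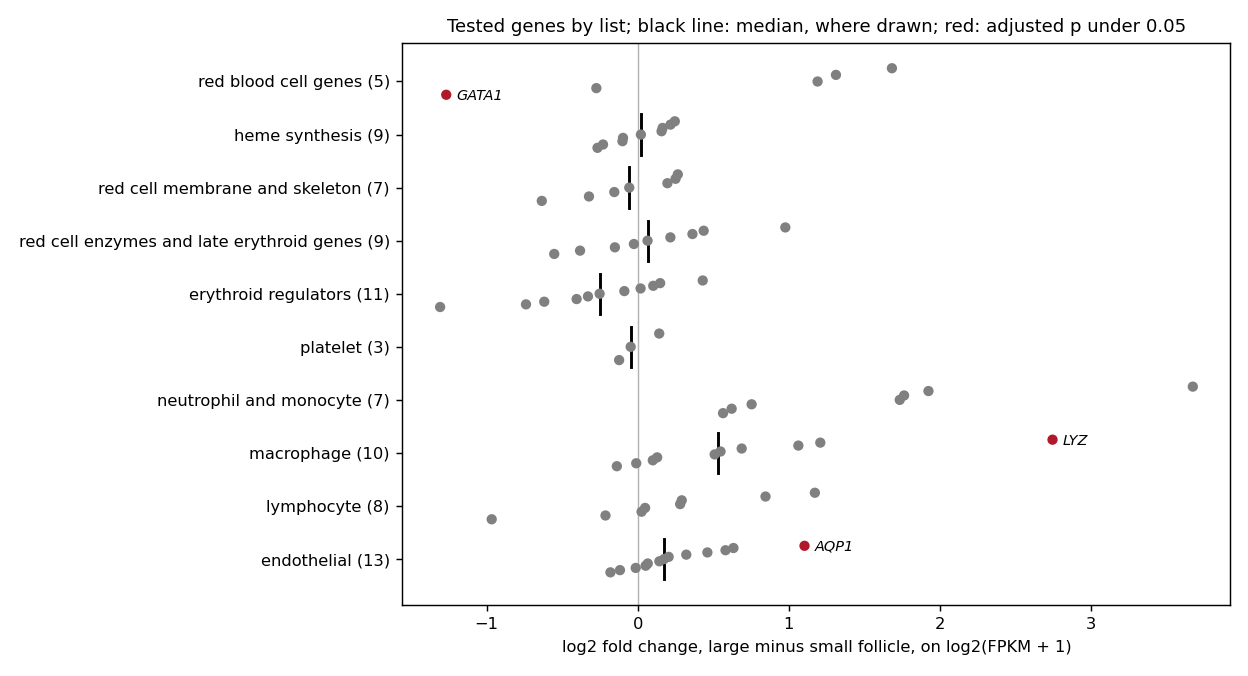
Log2 fold changes, large minus small follicle on log2(FPKM + 1), of the tested genes of each list (number in brackets); red points have a limma BH-adjusted p under 0.05 and black lines are list medians, left out for the red blood cell, neutrophil and monocyte, and lymphocyte lists because some of their genes passed the filter through 1 group alone. GATA1 lies on the side of small follicles, and the 7 tested neutrophil and monocyte genes lie on the side of large ones.

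Leaving out the 8 genes themselves and rows with LOC names, the protein-coding genes whose profile over the 5 libraries was nearest to HBB were DPPA5, HCST, CCL21, MZB1 and MFAP4. Likeness was the root mean square difference between the genes' deviations from their own 5-library means of log2(FPKM + 1). It was 0.27, 0.32, 0.34, 0.39 and 0.40 for these 5, beside a median of 1.14 over the 11590 genes compared. ALAS2, at 0.317, was nearer to HBB than all of these but DPPA5. The beta-like row LOC100515788 lay at 0.38, AHSP at 0.54 and GATA1 at 1.58. CCL21, a chemokine of lymphatic vessels, had 1268, 1744 and 1205 FPKM in large and 720.2 and 433 FPKM in small follicles. DPPA5 encodes an RNA-binding protein of germ and pluripotent cells, HCST an adaptor of lymphocyte receptors, MZB1 a protein of antibody-secreting cells and MFAP4 a protein of elastic fibres.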

How the data were processed

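Ovarian follicle RNA was measured in 5 libraries, grouped by sample title. Per the labels' protocols, TRIzol was used for RNA and a stranded mRNA kit for paired-end libraries. Values are FPKM per gene, as deposited by the authors. Tools named in the submitters' processing notes, with no role, are featureCounts 1.5.0-p3, StringTie 1.3.3, HISAT2 2.0.5 and Trimmomatic 0.38, and the build is Sscrofa11.1. Chromosome numbers came from a RefSeq table of that assembly, matched for 30335 genes.

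Library totals and fragments were worked back from the FPKM steps: 49.5% of the 23353 genes above 0 gave whole fragments within 0.001 at the listed length, and the others at a shorter length found by search. Recovered fragments summed to 99.7% to 99.8% of the totals. FPKM folds are ratios of group means. The test was limma 3.58.1 (R 4.3.3), two-sided, on log2(FPKM + 1) values with its trend option, and Benjamini-Hochberg adjustment over the 13087 genes at 1 FPKM or more in at least 2 libraries, and a call at an adjusted p under 0.05. It was checked on simulated data. There the genes varied independently and with 1 common spread, so the check does not cover deviations that many genes share within a library. Intervals cover counting error only.

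Named genes were the 8 genes, every hemoglobin subunit row and up to 4 tested genes of each list with the smallest p. The 5 genes most like HBB, the 8 genes and LOC rows left out, were also named. SPTB, RHAG, ERMAP, ANK1, KEL, ICAM4, NFE2, EPOR, LMO2, TAL1 and LYL1 were added after their values were seen. So were PPBP, MPO, ELANE, FCGR3A, CDH5, KDR, FLT1 and the GATA family. The genes and lists were chosen with earlier results of these data known. Some list genes are not reported here and are left out of list counts, medians and sums, though not of the fit. Alternatives covered pseudocounts (0.1 and 5), filters, scalings, a replicate block, voom on recovered fragments and each library left out.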

Additional observations from a re-analysis of the deposited data

How the results depend on the processing

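The number of the 8 genes called was 1. It was 0 with a pseudocount of 5, with no filter and under a filter at mean FPKM 5, where GATA1 no longer entered, and 2 with median-of-ratios scaling (GATA1 and AHSP) and with a common FPKM sum, with or without hemoglobin rows (GATA1 and HBB). With 1 library left out it ranged from 0 to 3. Genes called in the other lists numbered 4, 1 with no filter and 2 to 11 with 1 library left out. The genes with at most 1 library pair out of the HBB order numbered 2 of 7 and ranged from 2 to 3 with 1 library left out, the third being EPB42 without large follicle replicate 2. The ratio to HBB did not overlap between groups for 2 of 4 genes, for 2 to 3 with 1 library left out (of 5 genes without large follicle replicate 1), and for 4 of 4 against AHSP in place of HBB. The cause was not tested. AHSP passed the filter through the large follicle libraries alone, with 2 fragments in each small one. This favours higher ratios to it in small follicles, so the 4 of 4 is no check on the ratios to HBB. The median log2 fold change over all genes, -0.08, was -0.19 with a common FPKM sum and ranged from -0.25 without small follicle replicate 1 to 0.094 without small follicle replicate 2, so the sign of this reference rests on single libraries.

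The replicate numbers did not mark libraries that deviate together: deviations of same-numbered libraries correlated over genes at r = -0.00148 and -0.449. Across numbers, r was 0.449 for large replicate 2 with small replicate 1 and 0.533 for large replicate 3 with small replicate 2. The 2 small follicle libraries deviate by opposite amounts from their mean, so each r with 1 of them has the reverse sign with the other. With a replicate block the number called was 1, HBB (limma BH-adjusted p = 0.000177) in place of GATA1 (limma BH-adjusted p = 0.0780), and 157 genes were called in all, against 128. Large follicle replicate 3 has no small follicle library of its number, so in this fit it does not enter the difference. The HBB log2 fold change was 1.87, the same as without that library. So few libraries per fitted term leave the spread behind this p mostly taken from other genes.

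Log2 fold changes near 0 changed sign, without a call: with 1 library left out ITGA2B ranged from -0.014 to 0.30, ITGB3 from -0.36 to 0.12 and GP9 from -0.22 to 0.13. GP9 was 0.017 under median-of-ratios scaling and 0.048 under quantile normalization. Among the other values of named genes, 737 kept side and direction, 58 gained a call and 29 lost one.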
